A study of Mus musculus with 12 samples.

Results

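The early effect of lamin B1 loss was measured by RNA sequencing in cultured mouse neural progenitor cells, 5 days after delivery of Cre. The comparison took the 3 libraries labelled cKO_Day5 against the 3 labelled WT_Day5, 6 of the 12 libraries of the study; the other 6 hold the same genotypes at day 9. The cKO cells were LaminB1fl/fl; Ai3, so that Cre removes the loxP-flanked part of the lamin B1 gene, and the WT cells were LaminB1+/+; Ai3. Both groups were of strain C57BL/6, were grown with EGF and FGF-2, and received the lentivirus pSox2-Cre, so the control cells also carry the virus, Cre and the reporter. Ai3 is a reporter allele that makes the yellow fluorescent protein EYFP after Cre has acted, and EYFP+ cells were sorted by FACS before RNA was isolated. The sort selects cells in which the reporter was recombined, not those in which the lamin B1 gene was. Nothing in the labels ties a replicate to a culture or an animal of its own; the p-values therefore reflect the spread between these libraries, which may be technical. The day 5 table holds 43309 features, of which 14849 passed the filter on low counts and were tested.

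Lamins are the filament proteins of the nuclear lamina, the meshwork beneath the inner nuclear membrane that holds chromatin at the nuclear edge. Lamin B1 (Lmnb1) and lamin B2 (Lmnb2) are B-type lamins and stay bound to the membrane, while the A-type lamins come from Lmna; the lamin B receptor (Lbr) is a membrane protein that ties the lamina to heterochromatin. Lamin B1 is known to be needed for the normal development of the brain, and a lower level of it is a known mark of senescent cells. Neural progenitors held in EGF and FGF-2 divide through the receptors of these factors and the kinase ERK, and can give rise to neurons, astrocytes and oligodendrocytes.

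The 6 libraries did not separate by genotype. Their totals were close, from 26720476 to 32127629 expected counts. The first principal component of log2 CPM (counts scaled to library size by the TMM method, not divided by gene length) held 71.9% of the variance. It set WT replicate 1, at -55.1, and cKO replicate 2, at -95.4, apart from the other 4 libraries, which lay between 22.9 and 50.3. No component up to the fifth separated the genotypes. In the 4 libraries that lay together, WT replicate 3 and cKO replicate 1 had a Pearson r of 0.988 across genes, as high as WT replicates 2 and 3 (0.988). Within the cKO group, replicates 1 and 2 had an r of 0.902, and 38.5% of genes differed more than 2-fold between them. Across genes, the loading on the first component had an r of 0.677 with GC content and -0.349 with log2 transcript length. cKO replicate 2 also differed in composition: the rRNA-like locus Gm42418 held 13.2% of its counts, against 0.0627% to 0.478% in the other 5 libraries, and protein-coding genes held 78.3%, against 92.6% to 94.4%. The nuclear long noncoding RNA Malat1 stood at 162, 221 and 109 CPM in WT replicates 1 to 3 and at 81.5, 2251 and 80.7 CPM in cKO replicates 1 to 3, with the high value in cKO replicate 2. Arhgap5, a gene with a long transcript, stood at 55.1, 12.4 and 10.7 CPM across WT libraries and at 8.87, 95.2 and 7.18 CPM across cKO libraries, high in WT replicate 1 and cKO replicate 2 alone. In the other direction, the metallothionein Mt3 stood at 110.2, 257 and 252 CPM in the WT libraries against 255, 92.9 and 158 CPM in the cKO libraries. List medians and the log2 fold changes printed with an error are therefore also given for the other 4 libraries (WT replicates 2 and 3, cKO replicates 1 and 3), as the 4-library value. It leaves out the pair that stood apart, a choice made after seeing the data.

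**Figure D1:**
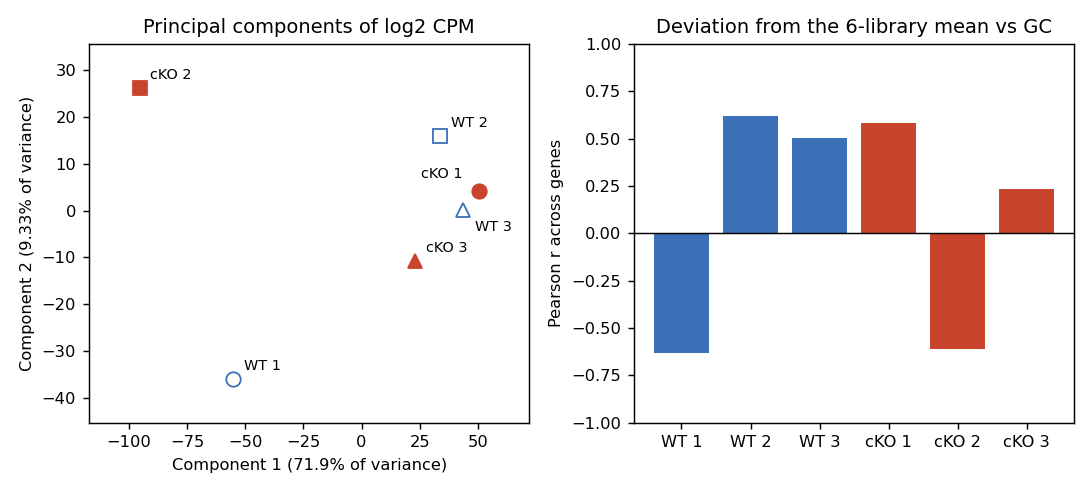
Left: the 6 day 5 libraries on the first and second principal components of log2 CPM (blue open, WT; red filled, cKO; circle, square and triangle, replicates 1, 2 and 3). Right: Pearson r across genes between each library's deviation from the mean of the 6 and the GC content of the gene; WT replicate 1 (-0.631) and cKO replicate 2 (-0.609) have the opposite sign to the other 4 libraries (0.236 to 0.618).

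The cells carried the transcripts of neural progenitors. On the TPM scale, which is divided by transcript length, 26 of 27 progenitor markers had a median of at least 1 over the libraries. Sox2, a transcription factor of neural stem cells, ranged from 85.8 to 165 TPM, the filament gene Nes from 113 to 255 TPM, and Vim from 2589 to 3925 TPM. Oligodendrocyte-lineage transcription factors were also abundant: Olig2 ranged from 432 to 702 TPM and Olig1 from 880.2 to 1655 TPM. Of 17 oligodendrocyte precursor markers, 16 had a median of at least 1 TPM. Of the markers of later cell types, 21 of 22 for astrocytes, 12 of 22 for maturing oligodendrocytes and 13 of 30 for neurons had a median of at least 1 TPM. Some single genes of mature cells were low, with Mog at no more than 0.03 TPM, Aqp4 at no more than 2.64 TPM and the neuronal gene Stmn2 at no more than 0.18 TPM. Their lists as a whole were not: the 22 astrocyte markers summed to 3292 to 3865 TPM in WT and 2266 to 3286 TPM in cKO. The 30 neuronal markers summed to 505 to 1028 TPM in WT and 604 to 662 TPM in cKO. Markers of cell types that the culture should lack were near 0: the 14 microglia and macrophage markers summed to 3.97 to 5.30 TPM in WT and 3.73 to 5.97 TPM in cKO, with C1qa, C1qb, C1qc, Aif1 and Tyrobp at 0 in every library. The 11 endothelial markers summed to 2.04 to 2.79 TPM in WT and 2.29 to 3.54 TPM in cKO.

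Lmnb1, the targeted gene (ENSMUSG00000024590, chromosome 18, 56707813 to 56753424, plus strand, mm10), fell in the cKO cells. It stood at 288, 255 and 247 CPM in WT replicates 1 to 3 and at 37.8, 40.7 and 45.04 CPM in cKO replicates 1 to 3. The groups were far apart, with the library-to-library spread small on each side: 263.6 ± 21.7 CPM in WT and 41.2 ± 3.65 CPM in cKO (SD, n = 3 each). The cKO mean was 15.6% of the WT mean, and single cKO libraries were at 14.3% to 17.1% of it. In edgeR's quasi-likelihood test the log2 fold change was -2.68 ± 0.20 (SE), with a Benjamini-Hochberg adjusted p of 0.0493 over all genes tested. The call was close to the threshold and did not pass it when any single library was left out (adjusted p from 0.1303 to 0.582), although the fold change kept to -2.76 to -2.60 on the log2 scale. In the 4-library fit it was -2.60, with an edgeR adjusted p of 5.68e-08. At day 9 the log2 fold change was -2.38, and the difference between the days was not past the threshold (edgeR interaction, 0.30, adjusted p 0.476).

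None of the other lamina genes passed the test at day 5. Lmnb2 stood at 58.3, 89.4 and 76.4 CPM across WT libraries and at 88.8, 51.8 and 76.6 CPM across cKO libraries, with a log2 fold change of -0.04 ± 0.28 (SE, 4-library value -0.0041). Lmna stood at 28.9, 54.4 and 53.3 CPM in the WT libraries against 56.2, 25.98 and 40.7 CPM in the cKO libraries (-0.15 ± 0.38, 4-library value -0.15), low in WT replicate 1 and cKO replicate 2. Both sets of values overlap between the genotypes, and the sign of each fold change turned when cKO replicate 2 was left out. Lbr stood at 60.9, 37.1 and 42.5 CPM across WT libraries and at 40.5, 65.9 and 53.9 CPM across cKO libraries (0.19 ± 0.29, 4-library value 0.24), high in the same pair of libraries, and its sign also turned without cKO replicate 2. Of 28 lamina partners and envelope proteins, Lmnb1 included, 12 were higher and 16 lower in cKO, with a median log2 fold change of -0.01 (4-library value -0.03) beside 0.01 over all genes tested. Apart from Lmnb1, the only member whose groups did not overlap was Nup50, a nucleoporin, at 132, 117 and 121 CPM in the WT libraries against 133, 143 and 149 CPM in the cKO libraries.

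**Figure D2:**
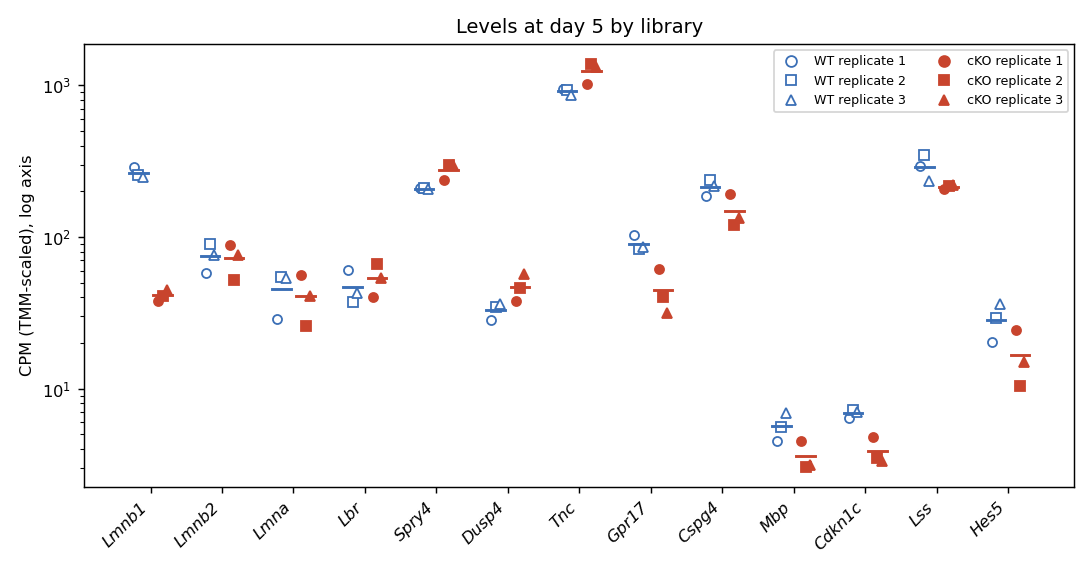
CPM on a log axis of 13 genes in each day 5 library (blue open, WT; red filled, cKO; circle, square and triangle, replicates 1, 2 and 3; bars, group means). The cKO libraries of Lmnb1 sit between 37.8 and 45.04 CPM, below all WT libraries (247.4 to 288.3 CPM); Lmnb2, Lmna and Lbr overlap.

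Lmnb1 was the only gene past the threshold: 0 of 14849 genes were called higher and 1 lower, 0.00673% of those tested. At an unadjusted edgeR p under 0.05 there were 89 genes, 0.599% of those tested. DESeq2 called 8 genes higher and 1 lower, limma-voom 1 and 1, and the 4-library fit 12 and 7. The spread that the test worked against was large, with a common biological coefficient of variation of 0.405 at day 5, against 0.160 among the 4 libraries and 0.267 in the day 9 libraries. Genes are described below by their levels and by whether the 2 groups overlap: in 222 genes (1.5%) every cKO library lay above every WT library, and in 201 (1.35%) every cKO library lay below, 2.85% in all. Except for Lmnb1, the genes named below did not pass the test (adjusted p 0.9999 in each case), and values without a call are given as levels.

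Among well-expressed genes with no overlap (a mean of at least 5 CPM), those higher in cKO with the smallest p were Asb18, Kcnn2, Clic5, Arhgap26, Scml4, Me3, Afap1, Cybrd1, Fgf1 and Spry4. Asb18, which encodes an ankyrin-repeat protein with a SOCS box, stood at 3.39, 3.203 and 2.72 CPM across WT libraries and at 6.75, 8.097 and 7.18 CPM across cKO libraries, with a log2 fold change of 1.24 ± 0.25 (4-library value 1.23); DESeq2 called it, with an adjusted p of 0.0228. Kcnn2, a calcium-activated potassium channel, stood at 5.77, 4.13 and 4.82 CPM in the WT libraries against 8.31, 17.5 and 11.8 CPM in the cKO libraries (1.35 ± 0.34, 4-library value 1.17). Each cKO library was above each WT library for both genes, while the size of the Kcnn2 difference varied among cKO libraries. Clic5, a chloride intracellular channel protein, stood at 11.4, 6.59 and 7.68 CPM across WT libraries and at 13.1, 20.4 and 21.4 CPM across cKO libraries (1.10 ± 0.33), and was called in the 4-library fit (1.27, edgeR adjusted p 0.0433). Arhgap26 stood at 15.7, 9.21 and 10.8 CPM in the WT libraries against 15.9, 30.7 and 22.1 CPM in the cKO libraries (0.95 ± 0.34, 4-library value 0.93), with WT replicate 1 and cKO replicate 1 all but equal. Fgf1, a growth factor that binds all FGF receptors, stood at 71.9, 52.8 and 59.1 CPM across WT libraries and at 73.1, 93.4 and 91.9 CPM across cKO libraries (0.49 ± 0.22, 4-library value 0.56). The log2 fold changes of Scml4, Me3, Afap1 and Cybrd1 lay between 0.53 and 0.60.

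Genes lower in cKO by the same rule were Lmnb1, Gpr17, Scg5, Acss2, Cdkn1c, Hebp1, Rab33a, Snx22, Spon1 and Shisal1. Gpr17, a G-protein-coupled receptor of committed oligodendrocyte precursors, stood at 103, 83.1 and 85.3 CPM in the WT libraries against 61.3, 40.5 and 31.6 CPM in the cKO libraries, with a log2 fold change of -1.02 ± 0.29 (4-library value -0.86). Acss2, the enzyme that makes acetyl-CoA from acetate, stood at 161, 237 and 172 CPM across WT libraries and at 115, 102 and 128 CPM across cKO libraries (-0.73 ± 0.23, 4-library value -0.76). The groups are apart for both, and the spread among the cKO libraries of Acss2 was small. Cdkn1c, which encodes the cell cycle inhibitor p57, stood at 6.44, 7.24 and 6.99 CPM in the WT libraries against 4.81, 3.51 and 3.33 CPM in the cKO libraries (-0.83 ± 0.26), and its 4-library value was -0.81. Scg5, a secretory pathway chaperone, stood at 16.5, 18.5 and 17.3 CPM across WT libraries and at 12.2, 8.14 and 9.58 CPM across cKO libraries (-0.81 ± 0.25, 4-library value -0.72). Hebp1, a heme-binding protein, stood at 9.65, 16.7 and 13.3 CPM in the WT libraries against 9.05, 6.36 and 4.03 CPM in the cKO libraries (-1.03 ± 0.38, 4-library value -1.20), where WT replicate 1 lay close to cKO replicate 1. The log2 fold changes of Rab33a, Snx22, Spon1 and Shisal1 lay between -0.79 and -0.50.

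Several of these genes lie on chromosome 18, the chromosome of Lmnb1: 4 of the 10 higher genes (Kcnn2, Arhgap26, Fgf1 and Spry4) and 2 of the 10 lower ones (Lmnb1 and Gpr17). This was noticed after the values were seen and carries no test. Both genotypes are labelled C57BL/6, and the strain in which the floxed allele was made is not in the labels. For genes linked to Lmnb1, loss of lamin B1 and a strain difference carried with the allele cannot be told apart. On other chromosomes, any difference in the origin of the cKO and WT cells would also go with genotype, and this was not tested. Chromosome 18 held 410 of the genes tested (2.76%) but 12 of the 100 genes with the smallest p; each of the other 19 chromosomes held 0 to 9. It also had the highest share of genes with no overlap, 25 of 410, Lmnb1 included (6.10%), against 1.31% to 4.76% on the other chromosomes, and 11 genes with an unadjusted edgeR p under 0.05 (2.68%, against 0% to 1.14%). Of the 25, 11 were higher and 14 lower in cKO. The share was highest near Lmnb1: 10 of 77 genes that start within 10 Mb of it did not overlap (12.99%), 9 of 146 at 10 to 20 Mb (6.16%) and 6 of 187 farther away (3.21%). The count among the 100 smallest p was 14 in the 4-library fit, 13 with the GC and length offset, 15 with DESeq2, 12 with limma-voom and 15 on TPM. At day 9, 41.6% of the chromosome's genes were called, within the range of the other chromosomes (39.7% to 49.3%).

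The chromosome 18 genes included some with large differences. The antisense transcript 1500015A07Rik, 5.02 Mb from Lmnb1, stood at 1.51, 0.955 and 0.8604 CPM across WT libraries and at 16.1, 4.92 and 8.57 CPM across cKO libraries, with a log2 fold change of 3.15 ± 0.52 (4-library value 3.75). Gm10524, a transcript model with no known protein, 25.98 Mb away, stood at 37.8, 40.4 and 38.6 CPM in the WT libraries against 77.6, 81.6 and 78.8 CPM in the cKO libraries (1.03 ± 0.19, 4-library value 0.99). In Gm10524 the libraries of each genotype lay within a few CPM of one another, the pair that stood apart included. C030005K06Rik, a noncoding transcript 6.67 Mb away on the other side, stood at 3.27, 1.14 and 1.14 CPM across WT libraries and at 0.318, 0.248 and 0.312 CPM across cKO libraries (-2.64 ± 0.55, 4-library value -1.84). Sh3tc2, known for its role in myelination by Schwann cells, stood at 1.73, 1.88 and 1.89 CPM in the WT libraries against 0.955, 0.537 and 0.868 CPM in the cKO libraries (-1.21 ± 0.34, 4-library value -1.05). Aldh7a1, a lysine-degrading dehydrogenase whose start is 0.198 Mb from that of Lmnb1, stood at 83.6, 117 and 117 CPM across WT libraries and at 82.6, 57.3 and 73.1 CPM across cKO libraries (-0.58 ± 0.25, 4-library value -0.59), with a day 9 log2 fold change of -0.57. Minar2 and Stard6 were also lower in cKO without overlap (-0.89 and -0.84). The Gpr17 locus lies inside that of Lims2 (31942997 to 31949636 within 31922290 to 31958619), and Lims2 too was lower in cKO (-0.89); the use of strand in counting is not stated, so reads of overlapping or antisense genes may not be separable.

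**Figure D3:**
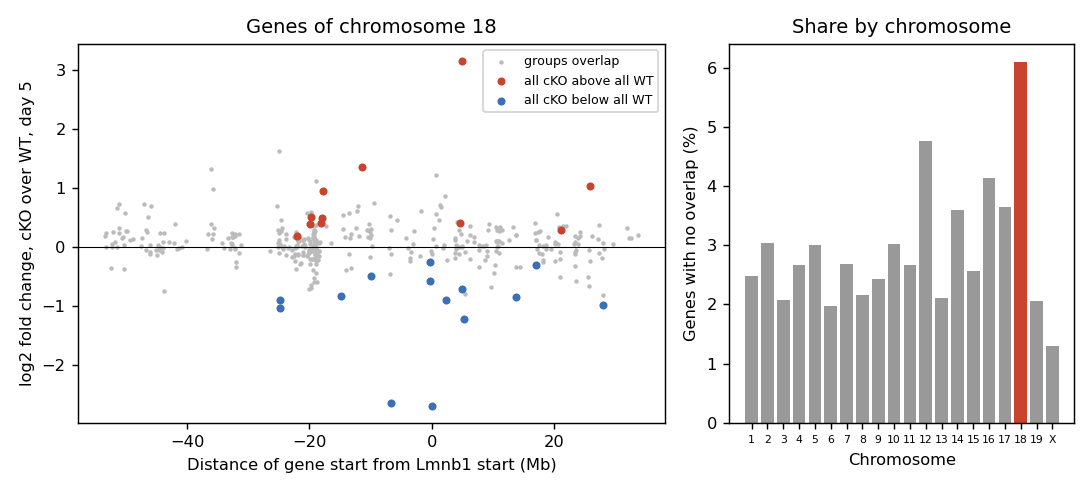
Left: day 5 log2 fold change of the 410 tested genes of chromosome 18 against the distance of their start from that of Lmnb1 (grey, groups overlap; red, every cKO library above every WT library; blue, every cKO library below). Right: percent of tested genes with no overlap on each chromosome; chromosome 18 is highest at 6.10%, against 2.85% over all genes.

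Oligodendrocyte genes were mostly lower in cKO. Among 17 oligodendrocyte precursor markers tested of 18 listed, 15 were lower and 2 higher, with a median log2 fold change of -0.23 (4-library value -0.24); 1 did not overlap, below, where the background is 1.35%. That one, Gpr17, lies on chromosome 18; of the 16 on other chromosomes, 14 were lower (median -0.21) and none was free of overlap. Beside Gpr17, the smallest p belonged to C1ql1, Cspg4 and Pdgfra. The proteoglycan gene Cspg4 (NG2) stood at 188, 237 and 217 CPM in the WT libraries against 192, 120.3 and 134 CPM in the cKO libraries (-0.52 ± 0.24, 4-library value -0.48). The PDGF receptor gene Pdgfra stood at 165, 78.6 and 77.4 CPM across WT libraries and at 56.9, 81.8 and 51.1 CPM across cKO libraries (-0.76 ± 0.37, 4-library value -0.53). C1ql1, a secreted C1q-like protein, stood at 10.9, 16.01 and 15.4 CPM in the WT libraries against 11.9, 5.16 and 5.93 CPM in the cKO libraries (-0.87 ± 0.39, 4-library value -0.81). In Cspg4 and C1ql1, cKO replicate 1 lay within the WT range while the other cKO libraries lay below it; in Pdgfra, WT replicate 1 was the one high value. Among 16 tested genes of maturing oligodendrocytes and myelin, of 22 listed, 11 were lower and 5 higher (median -0.28, 4-library value -0.20). Without Mbp, the 1 member on chromosome 18, 10 of 15 were lower (median -0.27). Mbp, myelin basic protein, stood at 4.501, 5.57 and 6.88 CPM across WT libraries and at 4.53, 3.06 and 3.16 CPM across cKO libraries (-0.66 ± 0.30, 4-library value -0.70). Fa2h, an enzyme of myelin lipids, was the only one of these genes without overlap, below WT, where the background is 1.35%. Its levels were very low, at 1.02, 0.832 and 0.964 CPM in the WT libraries against 0.4596, 0.537 and 0.173 CPM in the cKO libraries (-1.26 ± 0.46, 4-library value -1.49). Bcas1 and the transcription factor Myrf had log2 fold changes of -0.43 ± 0.24 (4-library value -0.28) and -0.47 ± 0.33 (4-library value -0.45). In bulk RNA, fewer cells of a type and less of its RNA per cell cannot be told apart.

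Astrocyte genes leaned the same way and progenitor genes did not. Of 22 astrocyte markers, 18 were lower and 4 higher (median -0.16); in the 4-library fit 21 were lower and 1 higher (-0.20), and no member was free of overlap with all 6 libraries. The glycolytic enzyme Aldoc stood at 260.3, 413 and 391 CPM across WT libraries and at 302, 172 and 227 CPM across cKO libraries (-0.60 ± 0.29, 4-library value -0.61), and Clu, which encodes clusterin, had a fold change of -0.48 ± 0.41 (4-library value -0.42). For Aldoc, cKO replicate 1 again lay among the WT values. Of 27 progenitor markers, 17 were higher and 10 lower (median 0.10, 4-library value 0.08, and -0.03 without cKO replicate 2). Tnc, a matrix protein of neural stem cells, was above WT in all cKO libraries, at 944, 922 and 860.3 CPM in the WT libraries against 1019.9, 1376 and 1325 CPM in the cKO libraries (0.45 ± 0.21, 4-library value 0.39). Nes stood at 712, 509 and 490.3 CPM across WT libraries and at 500.2, 1186 and 773 CPM across cKO libraries (0.52 ± 0.35, 4-library value 0.35), high in WT replicate 1 and cKO replicate 2. Neuronal markers had no steady direction: 9 of 22 were higher with 6 libraries (median -0.08) and 16 of 22 with 4 (0.13). Rbfox3, which encodes the neuronal protein NeuN, stood at 2.74, 2.56 and 2.31 CPM in the WT libraries against 1.91, 1.07 and 2.08 CPM in the cKO libraries (-0.58 ± 0.34, 4-library value -0.29), and Gad1, an enzyme of GABA synthesis, had a fold change of 0.56 ± 0.47 (4-library value 0.80). Of 30 synaptic genes 11 were higher and 19 lower (median -0.03, 4-library value -0.06), with Syn2, a synapsin, lower in every cKO library (-0.35 ± 0.22, 4-library value -0.40). Among 6 tested ependymal genes, 4 were lower, and Rsph1, a gene of motile cilia, was at 1.51, 1.29 and 1.65 CPM across WT libraries and at 0.955, 0.9501 and 1.15 CPM across cKO libraries.

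Feedback genes of FGF and ERK signalling were mostly higher in cKO. Of 16 members, 14 were higher and 2 lower, with a median log2 fold change of 0.20 (4-library value 0.16, again 14 of 16 higher); 4 of 16 had no overlap, all above, where the background is 1.5%. Without Spry4, the one member on chromosome 18, 13 of 15 were higher (median 0.17), 3 without overlap. Spry4, an inhibitor that ERK signalling induces, stood at 210.1, 209 and 206 CPM in the WT libraries against 237, 297 and 296 CPM in the cKO libraries (0.41 ± 0.19, 4-library value 0.36), with the WT libraries within a few CPM of each other. Dusp4, a phosphatase that acts on ERK, stood at 28.2, 34.6 and 36.1 CPM across WT libraries and at 38.003, 46.1 and 56.8 CPM across cKO libraries (0.51 ± 0.25, 4-library value 0.42). Spry2, a relative of Spry4, stood at 196, 172 and 180.1 CPM in the WT libraries against 197, 207 and 243 CPM in the cKO libraries (0.24 ± 0.19, 4-library value 0.32). All of these had every cKO library above every WT library, with cKO replicate 1 nearest to WT in each. In Spry2, cKO replicate 1 and WT replicate 1 were all but equal. Ccnd1, which encodes cyclin D1, stood at 1804, 1943 and 1928 CPM across WT libraries and at 2323, 1962 and 2541 CPM across cKO libraries (0.27 ± 0.21, 4-library value 0.33), where cKO replicate 2 lay close to WT; it also counts in the Wnt and G1 lists. Il17rd, another ERK pathway inhibitor, overlapped (0.44 ± 0.30, 4-library value 0.37). Immediate early genes, which the same pathway can induce, were split, 13 higher and 13 lower (median -0.003, 4-library value 0.05), with Fos at -0.32 ± 0.24 (4-library value -0.10) and Zfp36, an RNA-binding protein, at -0.35 ± 0.24 (4-library value -0.26).

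Cell cycle genes showed small differences. Of 56 genes of G2 and M phase, 43 were higher and 13 lower in cKO, with a median log2 fold change of 0.12 (4-library value 0.14, 46 higher); 3 had no overlap, all above, where the background is 1.5%, and 2 of 53 without the members on chromosome 18. Kif20a, a mitotic kinesin encoded on chromosome 18, stood at 112, 108 and 112 CPM in the WT libraries against 127, 117 and 133 CPM in the cKO libraries (0.18 ± 0.18, 4-library value 0.24). Ccnb1, which encodes cyclin B1, stood at 215, 186 and 233 CPM across WT libraries and at 232, 240.2 and 264 CPM across cKO libraries (0.21 ± 0.19, 4-library value 0.24), and cKO replicate 1 lay just under the highest WT library. The checkpoint kinase gene Bub1b and Incenp, a partner of Aurora B, had no overlap and fold changes of 0.15 and 0.16. Of 44 S phase genes 24 were higher and 20 lower (median 0.02, 4-library value 0.05, and -0.05 without WT replicate 1), with Tyms, thymidylate synthase, at 0.17 ± 0.18 (4-library value 0.14) and Rrm2, a ribonucleotide reductase subunit, at 0.16 ± 0.20 (4-library value 0.20); on TPM the sign for Tyms turned. Of 15 G1 cyclins and CDK inhibitors 11 were higher (median 0.09, 4-library value 0.12), Ccnd1 above and Cdkn1c below WT without overlap. DNA repair genes were higher in 29 of 33 cases (median 0.15, 4-library value 0.12 with 25 higher), none without overlap; without cKO replicate 2 the median was -0.07. Mdc1, a DNA damage mediator, was at 0.33 ± 0.24 (4-library value 0.16). Of 30 p53 target genes 19 were higher (median 0.06, 4-library value 0.08): Zmat3, an RNA-binding protein that p53 induces, stood at 122, 131 and 127 CPM in the WT libraries against 149, 171 and 155 CPM in the cKO libraries (0.32 ± 0.18, 4-library value 0.24), and the kinase gene Plk2 was at 0.25 ± 0.22 (4-library value 0.45). Of 12 tested genes of senescence and secreted factors 8 were lower (median -0.16, 4-library value -0.16).

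Other signalling pathways leaned in different directions. Notch pathway genes and targets were lower in 15 of 21 cases (median -0.21, 4-library value -0.25). The ligand gene Dll4 was the only one without overlap, below WT, where the background is 1.35%. Dll4 levels were very low, at 0.863, 1.36 and 0.792 CPM across WT libraries and at 0.566, 0.454 and 0.312 CPM across cKO libraries (-1.17 ± 0.40, 4-library value -1.29). The target Hes5 stood at 20.2, 29.4 and 36.001 CPM in the WT libraries against 24.5, 10.5 and 14.99 CPM in the cKO libraries (-0.77 ± 0.39, 4-library value -0.73), the ligand gene Dll3 was at -0.65 ± 0.38 (4-library value -0.55) and the feedback gene Nrarp at -0.44 ± 0.25 (4-library value -0.48). In Hes5 the lowest WT library, replicate 1, lay below the highest cKO library, replicate 1. Wnt target and feedback genes were higher in 13 of 20 cases (median 0.13, 4-library value 0.09), 3 of them without overlap, all above, where the background is 1.5%: Sfrp4, Ccnd1 and Axin2. Sfrp4, a secreted Wnt inhibitor, was low, at 1.11, 0.924 and 0.757 CPM across WT libraries and at 1.77, 2.81 and 4.03 CPM across cKO libraries (1.62 ± 0.40, 4-library value 1.78). Axin2, a feedback inhibitor of Wnt signalling, stood at 42.4, 41.1 and 42.9 CPM in the WT libraries against 44.4, 45.6 and 51.7 CPM in the cKO libraries (0.16 ± 0.20, 4-library value 0.19). Hedgehog pathway genes were higher in 9 of 11 cases with all libraries (median 0.24) and in 6 of 11 with 4 (0.08). Its co-receptor genes Cdon and Gas1 were at 0.44 ± 0.28 (4-library value 0.58) and 0.35 ± 0.25 (4-library value 0.26), and Mycn, a transcription factor it induces, was at 0.31 ± 0.28 (4-library value 0.47). BMP and TGF-beta response genes were split, 6 higher and 5 lower (median 0.03, 4-library value -0.0003).

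Metabolic genes were lower in cKO by small amounts. Of 25 cholesterol synthesis genes 24 were lower and 1 higher, with a median log2 fold change of -0.27 (4-library value -0.22, 19 lower); 3 had no overlap, all below, where the background is 1.35%. Lss, lanosterol synthase, stood at 291, 347 and 232 CPM across WT libraries and at 207, 218 and 219 CPM across cKO libraries (-0.44 ± 0.21, 4-library value -0.45). Nsdhl, a later step of the pathway, stood at 207, 220.3 and 194 CPM in the WT libraries against 170.4, 130.5 and 170.2 CPM in the cKO libraries (-0.40 ± 0.20, 4-library value -0.28). Acat2, which joins 2 acetyl-CoA units at its start, stood at 291, 365 and 299 CPM across WT libraries and at 268, 176 and 250.3 CPM across cKO libraries (-0.46 ± 0.24, 4-library value -0.36). In all of these the cKO libraries lay below all WT libraries, and cKO replicate 2 was lowest for Nsdhl and Acat2. Tm7sf2, a sterol reductase, overlapped (-0.74 ± 0.40, 4-library value -0.69). Subunits of the respiratory chain were lower in 44 of 45 cases (median -0.15, 4-library value -0.09 with 41 lower), none without overlap, and Ndufa1, a complex I subunit, was at -0.31 ± 0.28 (4-library value -0.19). The median was 0.01 without WT replicate 3 and 0.08 without cKO replicate 2. Ribosomal protein genes were lower in 76 of 80 cases with 6 libraries (median -0.09) and in 56 of 80 with 4 (-0.02), with Rpl17 at -0.25 ± 0.25 (4-library value -0.23); the median was 0.07 without WT replicate 3 and 0.14 without cKO replicate 2. Over all genes, the loading on the first component had an r of 0.677 with GC content and -0.349 with log2 transcript length. Its part in these medians was not tested. With the offset for GC content and length, the medians of the respiratory and ribosomal lists were -0.09 and -0.03. Genes of glycolysis and the hypoxia response were lower in 19 of 29 cases (median -0.13, 4-library value -0.21, and 0.01 without WT replicate 3).

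Stress, immune and chromatin lists each had few members apart between the groups, and differences between the lists were not tested. Outside chromosome 18, 2 of 18 interferon genes had no overlap, both below, where the background is 1.35%. Of 23 heterochromatin and DNA methylation factors there, 2 had no overlap, both above, where the background is 1.5%. Of 27 Polycomb genes, 1 lay above and 1 below. Of 25 genes of the integrated stress and unfolded protein response, 15 were higher (median 0.06, 4-library value 0.08, and -0.08 without cKO replicate 1), none without overlap. Of 19 tested interferon response genes 11 were lower (median -0.03, 4-library value 0.04). Isg15, a ubiquitin-like interferon product, was below WT in all cKO libraries at very low levels, 0.647, 0.462 and 0.516 CPM in the WT libraries against 0.212, 0.331 and 0.243 CPM in the cKO libraries (-1.04 ± 0.38, 4-library value -1.09), and Mx2, an antiviral GTPase, was lower in the same way (-0.53 ± 0.34, 4-library value -0.54). No interferon gene was free of overlap in the upward direction, where the background is 1.5%. MHC class I and antigen processing genes were lower in 10 of 15 cases (median -0.12, 4-library value -0.06, and 0.04 without cKO replicate 2), with H2-K1, a class I heavy chain, at 49.7, 99.9 and 87.9 CPM across WT libraries and at 65.1, 40.9 and 61.6 CPM across cKO libraries (-0.50 ± 0.33, 4-library value -0.57). Heterochromatin and DNA methylation factors were higher in 19 of 25 cases with 6 libraries (median 0.18) and with 4 (0.10), and the median was -0.02 without cKO replicate 2. The maintenance methyltransferase gene Dnmt1 stood at 338, 308 and 299 CPM in the WT libraries against 342, 381 and 345 CPM in the cKO libraries (0.18 ± 0.18, 4-library value 0.18), while Dnmt3a overlapped (0.45 ± 0.31, 4-library value 0.27). Polycomb genes were higher in 15 of 27 cases (median 0.10, 4-library value 0.04, and -0.05 without cKO replicate 2), with Cbx6, a Polycomb reader of histone methylation, at 0.22 ± 0.19 (4-library value 0.24). Nuclear long noncoding RNAs had a median of 0.30 over 12 tested genes with 6 libraries and 0.01 with 4. The median of 12 replication-dependent histone genes moved from 0.39 to -0.02 in the same way. Without cKO replicate 2 alone the medians were -0.63 and 0.23. Malat1 was at 2.29 ± 1.29 with 6 libraries and -1.03 with 4.

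**Figure D4:**
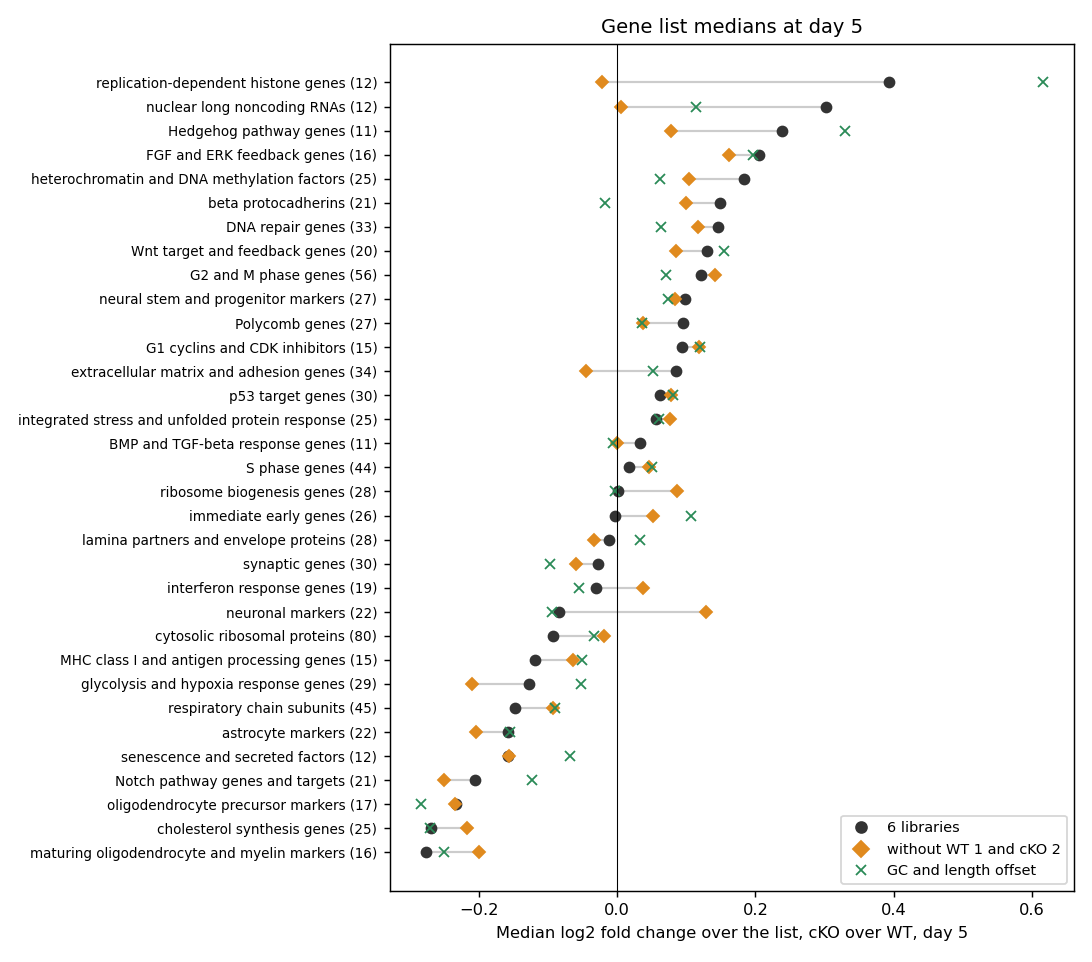
Median day 5 log2 fold change of each gene list with at least 10 tested members, whose number is in brackets (black, 6 libraries; orange, without WT replicate 1 and cKO replicate 2; green cross, GC and length offset). Cholesterol, oligodendrocyte, Notch and astrocyte lists stay below 0 and FGF and ERK feedback and G2 and M phase genes above 0 under all 3, while neuronal markers, replication-dependent histone genes and others cross 0.

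Each library was also left out in turn. Of 39 medians, 15 kept their sign in all 6 fits, and 16 changed it without cKO replicate 2. The oligodendrocyte precursor list stayed between -0.39 and -0.13, the myelin list between -0.37 and -0.05, astrocyte markers between -0.30 and -0.08, Notch genes between -0.36 and -0.13 and cholesterol genes between -0.40 and -0.21. FGF and ERK feedback genes stayed between 0.12 and 0.26, G2 and M phase genes between 0.05 and 0.31 and Hedgehog genes between 0.18 and 0.35. A kept sign does not by itself show a steady difference. Structural RNA features, high in cKO replicate 2, also kept theirs (0.12 to 4.30), as did replication-dependent histone genes (0.10 to 0.60). Their 4-library medians were -0.04 and -0.02.

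At day 9 the difference between the genotypes was much wider, with 3070 genes called higher (21%) and 3308 lower (22.6%) of 14617 in an edgeR fit of the day 9 libraries alone. The difference between the days was tested as an interaction over 12 libraries, which called 1181 of 15323 genes (7.71%). That share counts both directions together and is the background for the list counts of called members below. A called interaction shows that the days differ and not that the day 5 value differs from 0. The labels do not say whether the day 5 and day 9 libraries came from the same cultures. FGF and ERK feedback genes had a median of -1.98 at day 9, and 12 of 16 had a day 9 change called below the day 5 one. Spry4 was at 0.41 at day 5 and -3.83 at day 9 (difference -4.22, edgeR adjusted p 2.48e-05), and Dusp4 at 0.51 and -3.07 (difference -3.60, edgeR adjusted p 6.05e-04). Genes of G2 and M phase had a median of -2.70 at day 9, with 36 of 56 called below, and S phase genes of -1.77, with 34 of 44 called below. Ccnb1 was at 0.21 at day 5 and -3.63 at day 9 (difference -3.84, edgeR adjusted p 2.04e-05). The day 5 medians of these 3 lists were 0.20, 0.12 and 0.02.

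Maturing oligodendrocyte and myelin genes had a median of 2.41 at day 9, against -0.28 at day 5. A day 9 change called above that of day 5 was found in 10 of 16, beside 7.71% of all genes called in either direction. Mbp was at -0.66 at day 5 and 4.67 at day 9 (difference 5.32, edgeR adjusted p 2.35e-05), and Fa2h at -1.26 and 4.27 (difference 5.54, edgeR adjusted p 1.07e-04). Gpr17, on chromosome 18, lay below WT without overlap at day 5 but was not called there. At day 9 Gpr17 was at 2.51 (difference 3.52, edgeR adjusted p 3.63e-04). Of the oligodendrocyte precursor markers 6 of 17 were called above and 2 below, the latter including Cspg4 (-1.62 at day 9). Pdgfra was at -0.76 at day 5 and -0.70 at day 9. Of the astrocyte markers 8 of 22 were called above and none below. Cdkn1c was at -0.83 and 1.62 (difference 2.44, edgeR adjusted p 2.86e-04). Cholesterol synthesis genes had nearly the same median at the 2 days (-0.27 and -0.21). Of 25, 1 was called as differing between the days, Lss, at 0.56 at day 9. Since only 7.71% of all genes were called, so low a count is not particular to this list.

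**Figure D5:**
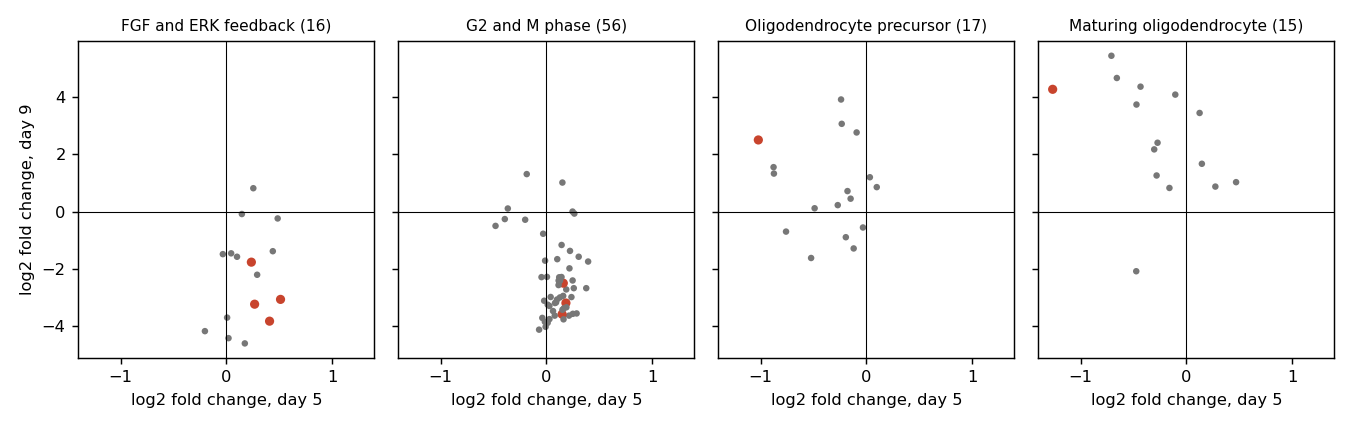
Day 9 against day 5 log2 fold change (cKO over WT) of single genes in 4 lists, with the number of genes in brackets; larger red points have no overlap between the day 5 groups. Most FGF and ERK feedback and G2 and M phase genes lie to the right and below 0, and most oligodendrocyte genes to the left, with the maturing ones above 0.

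Over all genes, whether day 5 resembled day 9 depended on the libraries used. Of the 2806 genes called higher at day 9 and tested at day 5, 67.0% were higher at day 5 (median 0.10), and of the 3202 called lower 32.5% were, beside 50.8% of all 13502 genes. That is a gap of 34.5 percentage points. Without cKO replicate 2 the gap was -58.3 points (17.997% and 76.3%), in the 4-library fit it was 13.3 points and with the GC and length offset 2.02 points. For day 9 changes of at least 1 on the log2 scale the order in the 4-library fit was the opposite: 38.1% of those called higher and 48.5% of those called lower were higher at day 5. The Pearson r between the day 5 and day 9 log2 fold changes, over 13502 genes that share libraries within a day, was 0.297 with all libraries, -0.469 without cKO replicate 2, -0.078 in the 4-library fit (13389 genes) and 0.147 with the offset. The r of the day 5 fold change with the loading on the first day 5 component was -0.559, and that of the day 9 fold change was -0.558. The day 5 fold change and the loading come from the same libraries, so the first r is in part built in. The 2 values are therefore not like measures. Among genes with no overlap at day 5, 25 of the 2806 genes called higher at day 9 lay above WT at day 5 (0.891%) and 39 below (1.39%), and of the 3202 called lower 27 lay below (0.843%) and 53 above (1.66%). Over all 13502 genes, 189 lay above (1.3998%) and 161 below (1.19%).

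Most genes with a large day 9 change overlapped at day 5, and some did not. Genes with a day 9 log2 fold change of at least 2 in size, a mean of at least 5 CPM at day 5 and no overlap between the day 5 groups comprised 6 with the same sign at both days and 15 with the opposite one. They come from 524 genes (Gm-numbered, Rik and pseudogene entries left out) past the day 9 and CPM limits, 273 with the same sign and 251 with the opposite one. Of these, 2.20% and 5.98% had no overlap, and 4.01% of the 524, beside 1.68% of the 10289 genes past the CPM limit. These counts are descriptions. The 6 were Lmnb1, Kcnn2, Papln, Pla2g3, Slc43a1 and Trim66. Kcnn2, higher at both days, was at 2.34 at day 9, and its difference between the days did not pass the threshold (edgeR adjusted p 0.162). Papln, which encodes the matrix protein papilin, stood at 7.86, 7.39 and 5.82 CPM across WT libraries and at 5.02, 5.04 and 4.96 CPM across cKO libraries at day 5 (-0.49 ± 0.24, 4-library value -0.41) and was at -3.53 at day 9. Pla2g3, a secreted phospholipase, Slc43a1, an amino acid transporter, and Trim66 were at -0.61, -0.33 and -0.19 at day 5 and at -2.41, -2.09 and -2.84 at day 9. Among those of opposite sign, Rassf3, a Ras-association protein, stood at 95.9, 89.3 and 92.8 CPM in the WT libraries against 108, 113 and 142 CPM in the cKO libraries (0.38 ± 0.20, 4-library value 0.46) and was at -2.69 at day 9. The metalloprotease gene Adam19 and the phosphoinositide phosphatase gene Synj2 were at 0.36 and 0.31 at day 5 and at -2.29 and -2.29 at day 9. Cybrd1, a ferric reductase, was at 0.53 and -2.07, and Rab33a, a small GTPase, at -0.62 and 2.12.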

How the data were processed

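RNA of sorted EYFP+ cells was sequenced in 12 libraries (3 WT and 3 cKO at day 5, and the same at day 9). The authors deposited 1 table of expected counts per gene and 1 of TPM for each day; per the submitters' processing notes RSEM and Bowtie2 were used with build mm10, and per the file headers the reads were single-end. RSEM divides reads that map to several genes among them, so near-identical copies are uncertain. Whether counting used strand is not given in the sources used here. Gene symbols, lengths, GC content and positions came from GENCODE's mouse annotation of the same build, which paired 97.96% of the day 5 features with a symbol; 0 columns belonged to other samples.

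Expected counts were rounded, filtered with edgeR's filterByExpr (minimum count 10), scaled by TMM and fitted with edgeR 4.0.16 (robust quasi-likelihood test, R 4.3.3, threshold 0.05 after Benjamini-Hochberg adjustment) on the 6 day 5 libraries alone. The day 9 fit used the 6 day 9 libraries, and the interaction all 12 over 41592 symbols found in both tables. Errors of log2 fold changes are standard errors from that fit. Principal components used log2 CPM with a prior count of 2. The deposited TPM values served as per-length levels and in a limma 3.58.1 fit on log2(TPM + 1). Alternatives were DESeq2 1.42.0, limma-voom, other scalings and filters, removal of structural RNA (with the rRNA-like features, Lars2 and the pseudogene Gm10925), a replicate block, libraries left out, and, added after seeing the data, WT replicate 1 and cKO replicate 2 left out together and an offset from a loess trend (span 0.3) on GC content and log2 length. The fits were tested on simulated counts.

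Members and gene lists were chosen with earlier results of these data known, so lists are described by counts and medians beside all genes tested. Named genes are Lmnb1, the other lamins and Lbr, every gene past the threshold, the 10 smallest p in each direction among genes of at least 5 CPM with no overlap (Gm-numbered, Rik and pseudogene entries left out), up to 4 members of each list with the smallest p, the extremes of the first component, and genes with a large day 9 change and no overlap at day 5. The chromosome 18 genes, Spry2, Bub1b, Incenp and Axin2, the abundant markers given in TPM and the features in the last section were named after their values were seen. Same-numbered libraries did not deviate together, so replicate numbers were not used as pairs.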

Additional observations from a re-analysis of the deposited data

Results flagged for a closer look

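The results listed here differ between the days: the cKO minus WT log2 fold change at day 9 minus that at day 5, tested as an interaction with edgeR over 12 libraries (3 per group), has an adjusted p under 0.05. The test covers all 15323 genes, of which 1181 (7.71%) were past the threshold. Among FGF, ERK, cell cycle and DNA damage genes the day 9 change was lower than the day 5 change, with the difference and its edgeR adjusted p in brackets, for Spry4 (-4.22, 2.48e-05), Spry2 (-1.997, 1.00e-04), Dusp4 (-3.60, 6.05e-04), Il17rd (-1.82, 0.00897), Ccnd1 (-3.50, 4.68e-05), Ccnb1 (-3.84, 2.04e-05), Kif20a (-3.37, 3.20e-05), Bub1b (-3.72, 1.73e-04), Incenp (-2.66, 5.16e-05), Rrm2 (-3.10, 5.54e-05), Mdc1 (-1.54, 0.00673) and Plk2 (-1.86, 0.00100). Among glial and neuronal markers it was higher for Mbp (5.32, 2.35e-05), Fa2h (5.54, 1.07e-04), Bcas1 (4.80, 2.35e-05), Myrf (4.21, 5.16e-05), Gpr17 (3.52, 3.63e-04), C1ql1 (2.20, 0.00821), Clu (2.47, 0.00725) and Rbfox3 (1.78, 0.0235), and among progenitor and precursor markers lower for Nes (-2.49, 0.00356) and Cspg4 (-1.10, 0.0254). Genes of signalling, lamina and chromatin with a lower day 9 change were Nrarp (-2.27, 3.78e-04), Sfrp4 (-2.90, 0.0434), Axin2 (-1.32, 0.00466), Gas1 (-1.93, 0.00133), Nup50 (-0.71, 0.0434) and Dnmt1 (-1.33, 0.00174). Among the genes with no overlap at day 5, the day 9 change was lower for Clic5 (-1.65, 0.0409), Arhgap26 (-1.63, 0.0352), Cybrd1 (-2.59, 1.31e-04), Gm10524 (-1.64, 0.00598), Papln (-3.06, 3.15e-04), Rassf3 (-3.07, 5.10e-05), Adam19 (-2.64, 9.33e-05), Synj2 (-2.62, 1.12e-04), Trim66 (-2.65, 8.90e-04), Pla2g3 (-1.80, 0.0150) and Slc43a1 (-1.77, 0.0123), and higher for Scg5 (1.31, 0.00896), Cdkn1c (2.44, 2.86e-04), Rab33a (2.74, 2.84e-04), Snx22 (1.44, 0.0293), Spon1 (0.86, 0.0350), Lss (0.99, 0.0369), Lims2 (2.55, 0.00442) and Mx2 (1.54, 0.0496). The day 5 libraries that stood apart enter this fit, and their part in the differences was not tested. Groups of 3 libraries are too small for the check on outlying samples.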

How the results depend on the processing

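Every setting kept the direction of Lmnb1, and its call at an adjusted p under 0.05 held with DESeq2, upper-quartile scaling, a minimum count of 50, limma-voom, limma on log2(TPM + 1), structural RNA removed, all 12 libraries in 1 fit and the 4-library fit. It was lost with no filter on low counts (-2.73, adjusted p 0.0541), with the GC and length offset (-2.61, 0.972), with the replicate block (-2.68, 1) and in every fit that left out 1 library (-2.76 to -2.60). The count of called genes, 1 as reported, was 9 with DESeq2, 2 with limma-voom, 3 with limma on log2(TPM + 1), 2 with all 12 libraries in 1 fit, 19 without WT replicate 1 and cKO replicate 2 together, 0 with no filter, 0 with the offset, 0 with the replicate block and 0 to 0 with single libraries left out. The block changed no other call, and same-numbered libraries deviated from their group means with correlations of -0.72, -0.50 and 0.53, and not every library correlated best with its own number. The number of list medians below 0, 18 of 39, was 15 to 20 with single libraries left out and 30 on TPM, where the median over all genes moved from 0.01 to -0.10. The gap in direction between genes called higher and lower at day 9, 34.5 points, was 36.8 at a minimum count of 50, 28.2 with limma-voom, 20.6 on TPM, 30.8 with the replicate block, 13.3 in the 4-library fit, 2.02 with the offset, 21.9 for day 9 changes of at least 1 and -58.3 to 55.6 with single libraries left out, negative without WT replicate 2, WT replicate 3 or cKO replicate 2. Signs turned for Lmnb2 (0.066 with the offset, -0.20 to 0.14 with single libraries left out), Lmna (-0.43 to 0.091), Lbr (-0.0061 to 0.42), Tyms (-0.088 on TPM) and Malat1 (-1.02 to 2.89, and -1.03 in the 4-library fit); without cKO replicate 2 all but Tyms turned. The causes of these changes were not tested. A count of 0 in a library allows up to 3 counts, or 0.0923 to 0.123 CPM, for counting error only.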

Other observations

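Several features with no gene name differed between the genotypes at day 5 in every library, the pair that stood apart included, and some were near 0 in WT; they were picked after their values were seen. The antisense transcript Gm27177 on chromosome 14 stood at 0.339, 0 and 0.0688 CPM in WT replicates 1 to 3 and at 6.12, 13.8 and 11.5 CPM in cKO replicates 1 to 3, and was called on log2(TPM + 1) by limma (adjusted p 0.0437) and by DESeq2 (8.49e-11). It was also higher at day 9 (log2 fold change 4.34, edgeR adjusted p 0.0167). The processed pseudogenes Mrps36-ps1 on chromosome 17 and Gm12396 on chromosome 4 were at 0 in all WT libraries, where 3 counts correspond to 0.0923 to 0.103 CPM, and at 0.884, 0.661 and 1.01 CPM and 1.03, 4.05 and 1.15 CPM in cKO. Values of such copies are uncertain, since their reads may not be separable from those of the parent gene. The antisense transcript 1700034P13Rik on chromosome 1 stood at 11.6, 9.12 and 8.33 CPM across WT libraries and at 26.3, 31.8 and 23.8 CPM across cKO libraries, and Gm37416 on chromosome 2 at 46.4, 50.97 and 51.7 CPM and 107, 97.5 and 105 CPM. In both, WT replicate 1 and cKO replicate 2 lay with the libraries of their own genotype, and DESeq2 called them (adjusted p 0.000324 and 0.000113). Of the 19 features called without WT replicate 1 and cKO replicate 2, 8 are annotated as protein-coding, 5 as processed pseudogenes and 3 as antisense transcripts.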
